A study of Mus musculus with 6 samples.

Results

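Immediate early genes were examined in the lateral septum of mice fed olanzapine, an antipsychotic drug, or control chow. The 10 genes were Fos, Fosb, Fosl2, Junb, Egr1, Egr2, Npas4, Nr4a1, Arc and Ier2, and they were taken by symbol from the 35415 genes in the deposited count and FPKM tables. All 10 passed the filter on low counts, which left 17255 genes for testing. Npas4 alone passed edgeR's quasi-likelihood test between the groups, about 2.20-fold higher in the olanzapine pools, whereas DESeq2 also called Egr1 and Fosb. All 10 had their highest level in olanzapine pool 1.

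Immediate early genes are transcribed within minutes of a stimulus, without new protein synthesis, because the factors that switch them on already sit in the resting cell. In neurons, calcium entry and kinase cascades act through CREB, SRF and MEF2, and the transcripts rise and decay quickly, so their level is widely read as a trace of recent activity. Most of them encode transcription factors (AP-1 subunits, EGR zinc fingers, the bHLH-PAS factor NPAS4 and the orphan nuclear receptor NR4A1), whereas Arc encodes a protein that acts at the synapse. The lateral septum is made up largely of GABAergic neurons that receive hippocampal input and project to the hypothalamus.

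The study asked how lasting exposure to olanzapine changes the lateral septum of mice that gain weight on the drug. Female wild-type C57BL/6 mice arrived at about 8 weeks of age, had 1 week to acclimate, and then received for 12 weeks either standard chow (control group) or the same feed with 50 mg of olanzapine added per kg (olanzapine group). The septum was dissected, and tissue of 3 mice was pooled for each library. Total RNA was extracted from the pools, and 3 libraries per group were sequenced. The spread given here is therefore between pools, and that between single mice is not known. The labels name no transgene and no second drug, and nothing in them ties a control pool to the olanzapine pool of the same number.

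Stretches of sequence before a RefSeq transcription start are shown for 5 of the genes, because the motifs in them are the best-known links between activity and these genes. RefSeq promoter entries (GRCm38.p6) were found for 7 of the 10 genes, and the 250 bases before each start were searched on both strands. The letters TGACG, the core of the cAMP response element that CREB binds, were present in 6 of these 7 genes (Fos, Fosb, Junb, Egr2, Npas4 and Nr4a1), against 19.8% of all 27025 genes with an entry. The full palindrome TGACGTCA, which contains that core, was in 0 of the 7 (1.77% of all genes). GCGNGGGCG, the site of EGR proteins, was in 3 (Fosb, Fosl2 and Nr4a1; 5.33% of all genes), and the CArG box of SRF in 1 (Egr2; 1.62% of all genes). The AP-1 site TGANTCA was in 0 of the 7 (7.82% of all genes), and TATAAA, the TATA box, in 1 (Fos, 14.3% of all genes). Only the 250 bases before each start were searched, so a gene with no match can hold the site elsewhere. A match is a description of these letters and was not tested as a binding site.

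The sequences of Fos (chr12:85473640-85473889, plus strand) and Nr4a1 (chr15:101266596-101266845, plus strand) are the whole window, which holds no GENCODE exon. For Npas4 (chr19:4990126-4990155, minus strand), Fosb (chr7:19310081-19310110, minus strand) and Egr2 (chr10:67537792-67537821, plus strand) only the 30 bases around the closest pair of motifs are given, since other annotated transcripts of these genes start further upstream. The Npas4 window lies wholly within a GENCODE exon, so the printed bases are transcribed in that annotation, as is the whole Fosl2 window that was searched. The printed bases of Fosb lie within the RefSeq gene, and those of Egr2 and the Nr4a1 window lie within the GENCODE span of the gene but in none of its exons. All are written 5′ to 3′ on the strand of the gene. Capitals mark TGACG or its reverse complement, the EGR site on either strand and, in Egr2, also the CArG box.
Npas4: ttcgaCGTCAcgggaTGACGtcggaagtct
Fosb: gcgggTGACGcaagcGCGGGGGCGggtccc
Egr2: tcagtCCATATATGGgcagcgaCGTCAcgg
Fos: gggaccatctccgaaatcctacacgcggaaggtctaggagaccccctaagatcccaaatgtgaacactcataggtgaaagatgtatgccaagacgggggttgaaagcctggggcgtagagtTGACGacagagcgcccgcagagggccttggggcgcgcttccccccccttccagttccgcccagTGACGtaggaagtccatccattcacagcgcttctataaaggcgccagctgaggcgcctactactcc
Nr4a1: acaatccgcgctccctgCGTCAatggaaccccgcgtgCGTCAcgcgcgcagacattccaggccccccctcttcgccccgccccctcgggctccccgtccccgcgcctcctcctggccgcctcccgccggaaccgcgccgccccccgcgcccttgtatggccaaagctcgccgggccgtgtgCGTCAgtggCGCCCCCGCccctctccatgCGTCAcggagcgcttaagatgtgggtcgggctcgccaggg

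The counts on genes ranged from 38208153 to 39868872 per library. Olanzapine pool 1 stood apart: the 12 markers of cortical glutamatergic neurons summed to 1259 CPM there (CPM, the reads of a gene scaled to a common library total) and to between 256 and 326 CPM in the other 5 pools, with 10 of the 12 highest in that pool and none at 0 in any pool. All 15 markers of lateral septum neurons were detected, among them Gad1, Gad2 and Slc32a1, which mark GABAergic neurons in general. Sst alone was highest in olanzapine pool 1. The sum of the 15 was lowest in that pool, at 2402 CPM, against 2860 to 3677 CPM in the other pools. For this reason the fold changes and calls of the 10 genes are given with and without olanzapine pool 1; the fit without it shares the other 5 pools and is no independent repeat. In bulk tissue, fewer cells of a type and less RNA per cell cannot be told apart.

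Levels of 1 gene across pools are given as normalized counts, that is counts scaled by the TMM size of each library. Fold changes are olanzapine over control on the log2 scale with a standard error (SE), and the edgeR adjusted p comes from the quasi-likelihood test of edgeR, corrected by the Benjamini-Hochberg method over every gene tested. At an edgeR adjusted p under 0.05, 1 of the 10 genes was called, against a background of 2.32% of all genes tested (1.83% higher and 0.493% lower in the olanzapine group). When olanzapine pool 1 was left out, the call was again Npas4 alone, against 2.87% of 17687 genes (1.76% higher and 1.11% lower). All 10 log2 fold changes were positive (50.7% of all genes tested) and 9 remained positive without olanzapine pool 1 (49.7%), Ier2 being the exception. The median of the 10 was 0.51 with all pools and 0.24 without olanzapine pool 1, where the median of all genes tested was 0.00389 and -0.00156. At an unadjusted p under 0.05 there were 5 genes (Fos, Fosb, Fosl2, Egr1 and Npas4, all higher; 17.6% of all genes, 9.19% higher) with all pools, and 3 (Fosb, Egr1 and Npas4, all higher; 18.8%, 8.71% higher) without that pool.

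In 4 genes (Fos, Fosb, Egr1 and Npas4) the 3 olanzapine pools all lay above the 3 control pools, which was the case for 13.3% of all genes tested; the reverse order was seen in 0 of the 10 and in 11% of all genes. The same 4 genes were separated when only olanzapine pools 2 and 3 were set against the controls (19.5% of all genes). Olanzapine pool 1 was the highest of the 6 pools in 10 of 10 genes (22.8% of all genes) and control pool 1 the lowest in 9 of 10 (16.8%), again with the exception of Ier2.

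**Figure D1:**
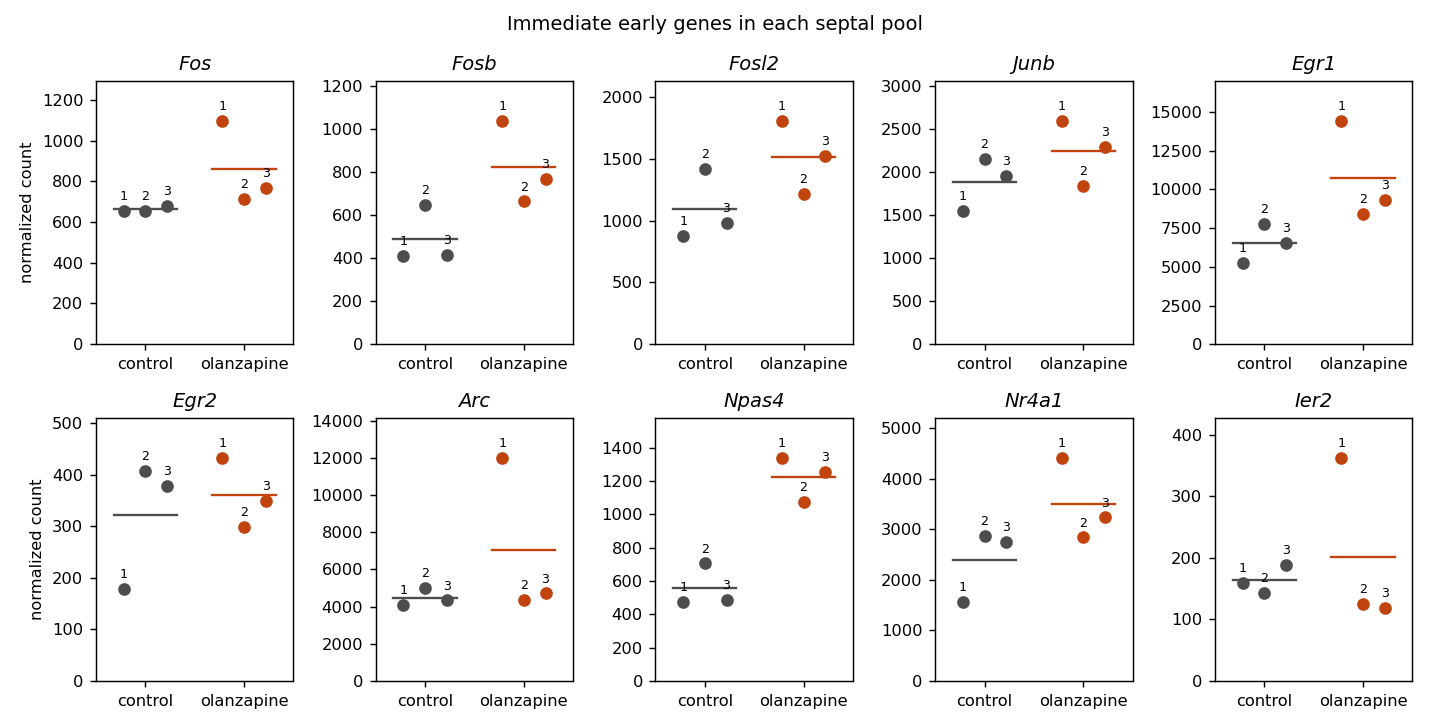
Normalized counts (vertical axes, from 0, a scale for each gene) of the 10 immediate early genes in the 3 control pools (grey) and the 3 olanzapine pools (orange), with the pool number above each point and a line at the group mean. Olanzapine pool 1 is the top point in all 10 panels, and only in Fos, Fosb, Egr1 and Npas4 do the groups not overlap.

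Npas4 encodes a neuron-specific factor that is induced by calcium entry and acts on inhibitory synapse genes and Bdnf. Its normalized counts were 1339, 1076 and 1257 in olanzapine pools 1 to 3 against 474, 705 and 487 in control pools 1 to 3. Every olanzapine pool lay above every control pool, and the olanzapine pools were close to each other. The group mean was 1224 ± 135 (SD, n = 3 pools) with olanzapine against 555 ± 130 (SD, n = 3) without it, a log2 fold change of 1.14 (SE 0.17, edgeR adjusted p = 0.0155). With olanzapine pool 1 left out it was 1.07 (SE 0.18, edgeR adjusted p = 0.0197), and olanzapine pool 1 was only 1.15 times the mean of the other olanzapine pools, the smallest such ratio of the 10 genes. The call was lost when control pool 1, control pool 3 or olanzapine pool 3 was left out (edgeR adjusted p = 0.067, 0.0621 and 0.0729), and, once olanzapine pool 1 was out, also when olanzapine pool 2 or 3 was left out (0.0889 and 0.181), although the log2 fold change stayed between 0.97 and 1.35. On the log2(FPKM + 1) scale, which understates the change of a gene at this low level, limma gave Npas4 a difference of 0.65 (limma adjusted p = 0.0293 with the filter on low values and 0.0738 with none). On the log2(FPKM + 0.1) scale the difference was 1.09 (limma adjusted p = 0.0352). Once olanzapine pool 1 was out, the call was lost in all 3 limma fits, at 0.62 on the first scale (limma adjusted p = 0.0641 with the filter and 0.136 with none) and 1.04 on the second (limma adjusted p = 0.0805).

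The gene model behind the Npas4 count is uncertain. The deposited counts and FPKM together imply a length of 16747 bases, the same in all 6 pools, whereas the GENCODE exons of Npas4 cover 4136 bases within chr19:4984355-4990316. The RefSeq gene extends to position 5003439, a span that includes AC124502.5, an unconfirmed GENCODE gene on the same strand. Reads from that stretch could be counted as Npas4, and their share was not tested.

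**Figure D2:**
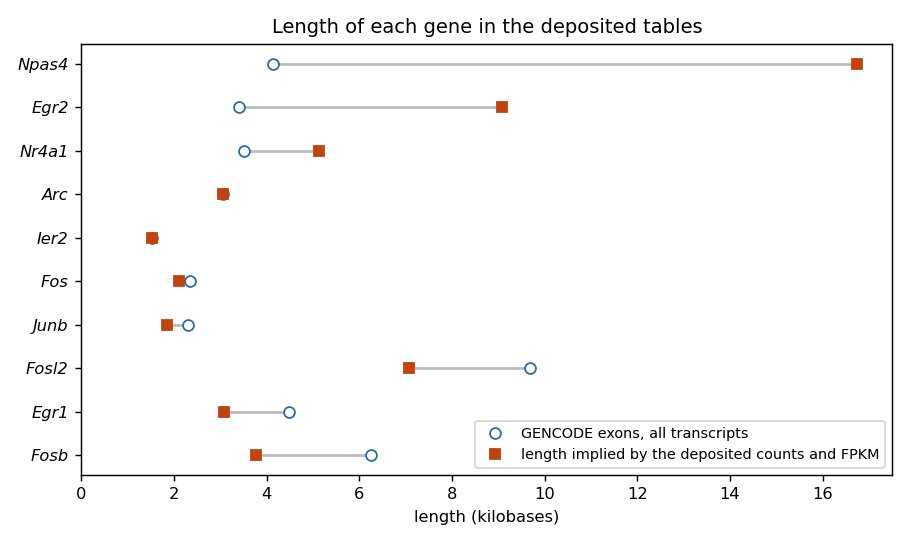
Length in kilobases implied by the deposited counts and FPKM (squares) and covered by GENCODE exons of all transcripts (circles) for each of the 10 genes. Npas4, Egr2 and Nr4a1 have a longer length in the deposited tables, 4.05, 2.67 and 1.46 times the GENCODE exons, and the other 7 a like or shorter one.

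Other sets of genes moved with the groups as Npas4 did. Of 10 RNAs known to be retained in the nucleus, 6 rose by edgeR's quasi-likelihood test (Malat1, Meg3, Miat, Snhg11, Mirg and Kcnq1ot1), with log2 fold changes from 0.78 to 1.38, and Neat1 was also called without olanzapine pool 1. The background of genes called higher was 1.83% with all pools and 1.76% without that pool; DESeq2 called 8 and 9 of the 10, against 6.69% and 7.58% of all genes in either direction. Their summed level was 2626 to 3168 CPM in the control pools and 5600 to 6520 CPM in the olanzapine pools. Of 14 hepatocyte markers, 13 rose by edgeR and by DESeq2 in each fit, the exception being Ttr, which also marks choroid plexus; Alb, the plasma protein albumin, had a log2 fold change of 3.80. Whether these sets share in the Npas4 difference was not tested.

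The FOS and JUN proteins pair as AP-1, the factor that many later genes answer to. Fos, the classical activity marker, had normalized counts of 1095, 713 and 766 in olanzapine pools 1 to 3 against 654, 655 and 679 in control pools 1 to 3. The controls were nearly equal, and olanzapine pools 2 and 3 lay just above them. Its log2 fold change was 0.37 (SE 0.16, edgeR adjusted p = 0.281), and 0.16 (SE 0.11, edgeR adjusted p = 0.468) without olanzapine pool 1.

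Fosb also gives rise to the stable truncated form ΔFosB, which builds up with repeated stimulation; counts per gene do not separate the forms. It had 1037, 664 and 767 normalized counts in olanzapine pools 1 to 3 against 412, 646 and 414 in control pools 1 to 3. Control pool 2 came close to olanzapine pool 2, while the other control pools lay well below. Fosb had a log2 fold change of 0.75 (SE 0.22, edgeR adjusted p = 0.144) with all pools and 0.54 (SE 0.20, edgeR adjusted p = 0.196) without olanzapine pool 1.

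Fosl2 encodes FRA-2, an AP-1 subunit whose transcript lasts longer than that of Fos. It was at 1806, 1216 and 1528 normalized counts in olanzapine pools 1 to 3 against 877, 1421 and 982 in control pools 1 to 3. Control pool 2 lay above olanzapine pool 2, so the groups overlapped, with a log2 fold change of 0.47 (SE 0.20, edgeR adjusted p = 0.277) that was 0.33 (SE 0.19, edgeR adjusted p = 0.414) without olanzapine pool 1. With control pool 2 left out instead it was 0.71. Once olanzapine pool 1 was out, it came to 0.57 without control pool 2, 0.19 without control pool 1 and 0.18 without olanzapine pool 3.

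Junb, the JUN partner in the set, had 2593, 1842 and 2292 normalized counts in olanzapine pools 1 to 3 against 1549, 2151 and 1960 in control pools 1 to 3. Olanzapine pool 2 lay below control pools 2 and 3. Its log2 fold change was 0.25 (SE 0.15, edgeR adjusted p = 0.445), and 0.13 (SE 0.14, edgeR adjusted p = 0.689) without olanzapine pool 1. It was 0.12 with control pool 1 left out instead. The GENCODE span of Junb overlaps Prdx2 on the other strand; the strand setting of the counting is not given in the sources used here, so reads in the shared stretch cannot be told apart.

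Of 8 other AP-1 subunits, 6 could be tested with all pools and 8 without olanzapine pool 1, and 0 were called in either fit by edgeR's quasi-likelihood test, by DESeq2 or at an unadjusted p under 0.05. The backgrounds with all pools and without olanzapine pool 1 were 2.32% and 2.87% with edgeR, 6.69% and 7.58% with DESeq2, and 17.6% and 18.8% at an unadjusted p. Jund, the most abundant, lay between 5818 and 6736 normalized counts in all 6 pools, and Jun between 1418 and 1641. Mafk, the third in abundance, had a log2 fold change of -0.16 (SE 0.12, edgeR adjusted p = 0.513) and of -0.20 (SE 0.13, edgeR adjusted p = 0.448) without olanzapine pool 1. Neither Jund nor Jun was highest in that pool, unlike the 10 immediate early genes.

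EGR proteins are zinc finger factors that bind GC-rich sites, including those of Arc. Egr1 had 14411, 8417 and 9326 normalized counts in olanzapine pools 1 to 3 against 5241, 7765 and 6526 in control pools 1 to 3. All olanzapine pools lay above all control pools, and olanzapine pool 1 was 1.55 times the next highest pool. The group mean was 10718 ± 3230 (SD, n = 3 pools) with olanzapine against 6511 ± 1262 (SD, n = 3) without it, a log2 fold change of 0.72 (SE 0.22, edgeR adjusted p = 0.143). With olanzapine pool 1 left out it was 0.45 (SE 0.14, edgeR adjusted p = 0.141). DESeq2 called Egr1 in both fits (DESeq2 adjusted p = 0.00972 and 0.0343), and Fosb with all pools (DESeq2 adjusted p = 0.021); its background was 6.69% of all genes tested with all pools and 7.58% without olanzapine pool 1.

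Egr2, known also for its role in myelin and hindbrain segmentation, was the least abundant gene per length and the most variable among controls. It had 433, 299 and 349 normalized counts in olanzapine pools 1 to 3 against 178, 407 and 379 in control pools 1 to 3. Control pools 2 and 3 lay among the olanzapine pools, and control pool 1 alone was low. The log2 fold change was 0.17 (SE 0.30, edgeR adjusted p = 0.825) and 0.01 (SE 0.31, edgeR adjusted p = 0.989) without olanzapine pool 1, and with control pool 1 left out instead it turned to -0.13. The deposited counts and FPKM imply a length of 9083 bases for Egr2, beyond its RefSeq span of 7720 bases. Its gene model is thus uncertain as well. Reads from outside the gene could be counted as Egr2, and their share was not tested. Per kilobase of GENCODE exons Egr2 was also last, at 2.57 CPM against 2.69 for Fosb.

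The orphan nuclear receptor gene Nr4a1, also called Nur77, had 4414, 2841 and 3235 normalized counts in olanzapine pools 1 to 3 against 1557, 2864 and 2744 in control pools 1 to 3. Olanzapine pool 2 lay between control pools 2 and 3, and control pool 1 was again low. The log2 fold change was 0.55 (SE 0.24, edgeR adjusted p = 0.293), and 0.35 (SE 0.22, edgeR adjusted p = 0.445) without olanzapine pool 1. With control pool 1 left out it was 0.32, and with both of these pools left out 0.11.

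Among the 4 other EGR and NR4A genes, 0 were called in either fit by edgeR's quasi-likelihood test, 2 had an unadjusted p under 0.05 with all pools and 1 without olanzapine pool 1, and DESeq2 called Egr4 in both fits. Of all genes tested, 17.6% and 18.8% had such an unadjusted p and DESeq2 called 6.69% and 7.58%. Egr3, a relative that Egr1-inducing stimuli also raise, was at 8482 normalized counts in olanzapine pool 1 and between 2916 and 4454 in the other pools. Its log2 fold change was 0.74 (SE 0.29, edgeR adjusted p = 0.242) with all pools and 0.29 (SE 0.14, edgeR adjusted p = 0.301) without olanzapine pool 1. Egr4 showed the other pattern: its counts were 1554, 1561 and 1705 in olanzapine pools 1 to 3 against 1200, 1371 and 1203 in control pools 1 to 3. The groups did not overlap in Egr4 and olanzapine pool 1 did not stand out, with a log2 fold change of 0.35 (SE 0.08, edgeR adjusted p = 0.0809), and of 0.38 (SE 0.09, edgeR adjusted p = 0.0760) without that pool. Nr4a3 had a log2 fold change of 0.40 (SE 0.30, edgeR adjusted p = 0.533), which was 0.11 (SE 0.26, edgeR adjusted p = 0.864) without it.

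Arc encodes a cytoskeleton-associated protein whose mRNA travels to active synapses, where the protein promotes AMPA receptor endocytosis. Its normalized counts were 12008, 4374 and 4708 in olanzapine pools 1 to 3 against 4104, 5012 and 4337 in control pools 1 to 3. Olanzapine pools 2 and 3 lay within the control range, and olanzapine pool 1 was 2.40 times the next highest pool. The log2 fold change of 0.65 (SE 0.36, edgeR adjusted p = 0.391) with all pools became 0.02 (SE 0.09, edgeR adjusted p = 0.950) without olanzapine pool 1.

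Ier2 encodes a small nuclear protein of the serum-induced early response. It had 363, 125 and 119 normalized counts in olanzapine pools 1 to 3 against 160, 143 and 188 in control pools 1 to 3. Olanzapine pool 1 was the highest of all pools, while olanzapine pools 2 and 3 lay below every control pool, an order that 18.2% of all genes tested shared. The log2 fold change was 0.30 (SE 0.42, edgeR adjusted p = 0.762) with all pools and turned to -0.42 (SE 0.21, edgeR adjusted p = 0.323) without olanzapine pool 1.

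**Figure D3:**
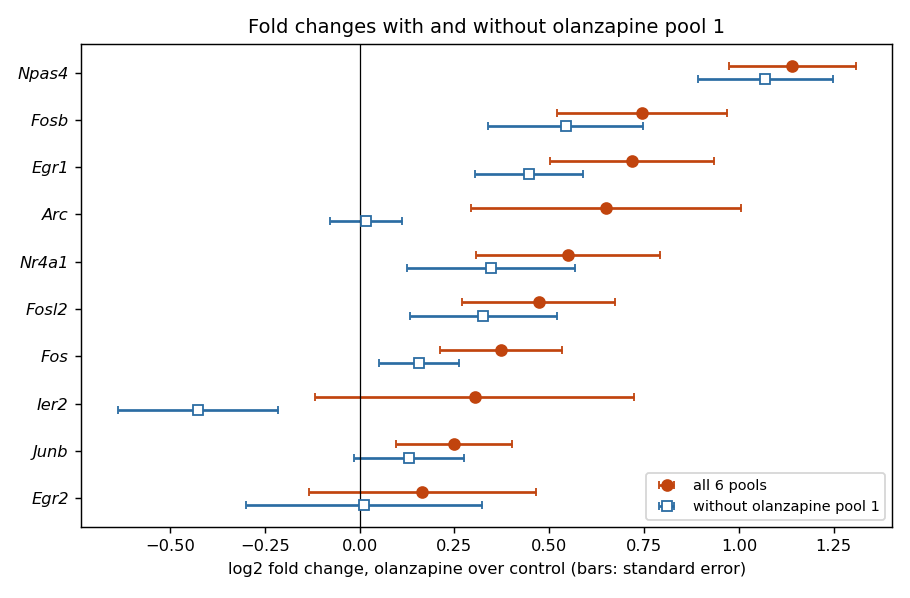
Log2 fold change, olanzapine over control (horizontal axis), of each immediate early gene with all 6 pools (filled circles) and without olanzapine pool 1 (open squares); bars are 1 standard error. Npas4 lies near 1.1 in both fits, Arc moves from 0.65 to 0.02 and Ier2 from 0.30 to -0.42.

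Olanzapine pool 1 was set against the mean of olanzapine pools 2 and 3, a description with no replicate. On the log2 CPM scale the median difference over the 10 genes was 0.54, from 0.20 in Npas4 to 1.56 in Ier2, where the median of all genes tested was -0.00488. Arc (2.64-fold) and Ier2 (2.97-fold) were more than 2-fold higher in that pool, which held for 3.59% of all genes tested. Egr1 (1.62-fold) joined them past 1.5-fold (8.58% of all genes). The same 3 genes were the ones where olanzapine pool 1 was over 1.5-fold above every other pool (2.74% of all genes).

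Markers of cortical glutamatergic neurons moved with olanzapine pool 1. Slc17a7, the vesicular glutamate transporter VGLUT1, was at 25735 normalized counts there and between 417 and 2152 in the other pools, and 9 of the 12 markers were over 2-fold above olanzapine pools 2 and 3. Their part in the high levels of that pool was not tested. Striatal markers, another neighbour of the septum, showed a different order, with sums of 1524, 2652 and 1990 CPM in the control pools and 1587, 3199 and 3064 CPM in the olanzapine pools. Olanzapine pool 1 and control pool 1, which held the highest and the lowest levels of most immediate early genes, were the pools with the least striatal signal.

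The genes that lie up- and downstream in the pathway were described from lists of known members. Of 33 kinases, phosphatases and transcription factors upstream of immediate early genes, 0 were called in either fit by edgeR's quasi-likelihood test. An unadjusted p under 0.05 was reached by 6 with all pools and 8 without olanzapine pool 1, and DESeq2 called 2 and 5. The backgrounds were 17.6% and 18.8% of all genes tested at an unadjusted p, and 6.69% and 7.58% with DESeq2. The median log2 fold change was 0.03 with all pools and -0.0015 without olanzapine pool 1. Camk2a, the most abundant of these kinases, had a log2 fold change of 0.04 (SE 0.17, edgeR adjusted p = 0.937) that turned to -0.17 (SE 0.12, edgeR adjusted p = 0.516) without olanzapine pool 1. Its relative Camk2b was at 0.18 (SE 0.08, edgeR adjusted p = 0.305) and 0.20 (SE 0.09, edgeR adjusted p = 0.282), and Prkacb, a catalytic subunit of protein kinase A, at -0.17 (SE 0.08, edgeR adjusted p = 0.333) and -0.18 (SE 0.09, edgeR adjusted p = 0.321).

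Of 22 other rapidly induced genes and 15 feedback repressors (phosphatases, NAB corepressors and mRNA decay factors), 0 were called in either fit by edgeR's quasi-likelihood test. At an unadjusted p under 0.05 there were 3 rapid and 4 feedback genes with all pools, and 6 and 3 without olanzapine pool 1, where DESeq2 called 2 and 1 against 0 with all pools. These counts stand against the same backgrounds, 17.6% and 18.8% at an unadjusted p and 6.69% and 7.58% with DESeq2. The median log2 fold change was 0.05 in the rapid and 0.10 in the feedback genes with all pools, and -0.064 and 0.0043 without olanzapine pool 1. Of the 3 most abundant rapid genes, Rheb, a small GTPase gene, had a log2 fold change of 0.04 (SE 0.07, edgeR adjusted p = 0.780) with all pools. Rasd1 was at -0.17 (SE 0.20, edgeR adjusted p = 0.726) and turned to 0.03 without olanzapine pool 1, and Arl4d was at 0.41 (SE 0.14, edgeR adjusted p = 0.192) and 0.48 (SE 0.15, edgeR adjusted p = 0.129). Among the feedback genes Rgs2, a regulator of G protein signalling, was the most abundant, at 0.10 (SE 0.14, edgeR adjusted p = 0.761) and 0.25 (SE 0.08, edgeR adjusted p = 0.140). Zfp36l1, an mRNA decay factor gene, was at -0.26 (SE 0.12, edgeR adjusted p = 0.333) and -0.15 (SE 0.10, edgeR adjusted p = 0.483). Nab2, the corepressor that EGR proteins induce against themselves, had a log2 fold change of 0.33 (SE 0.11, edgeR adjusted p = 0.189), and of 0.20 (SE 0.09, edgeR adjusted p = 0.275) without that pool.

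A list of 20 genes was labelled delayed activity-induced, and since all pools come from 12 weeks, the timing of its genes was not tested. In it edgeR's quasi-likelihood test called 1 with all pools, higher (background 2.32%). Without olanzapine pool 1 the same test called 1 higher and 2 lower (background 2.87%). An unadjusted p under 0.05 was reached by 4 and 5 (17.6% and 18.8% of all genes), and DESeq2 called 2 and 4 (6.69% and 7.58%). The median log2 fold change of the list turned from 0.33 to -0.12 without that pool. Rgs4, which speeds the shut-off of G protein signalling, had 11415, 10037 and 9118 normalized counts in olanzapine pools 1 to 3 against 5435, 6893 and 6462 in control pools 1 to 3. Its groups did not overlap, and its log2 fold change was 0.70 (SE 0.11, edgeR adjusted p = 0.0233) and 0.61 (SE 0.10, edgeR adjusted p = 0.0217) without olanzapine pool 1. Nptx1, a synaptic pentraxin, was at 10663 normalized counts in olanzapine pool 1, at 3011 and 3726 in olanzapine pools 2 and 3 and between 4766 and 5293 in the control pools. It passed the test only without olanzapine pool 1, where it fell by 0.56 on the log2 scale (SE 0.10, edgeR adjusted p = 0.0289), as did the sorting receptor gene Sorcs3, which fell by 0.54 (SE 0.10, edgeR adjusted p = 0.0339).

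Olanzapine pool 1 was the highest of the 6 pools in 15 of the 20 delayed genes, which held for 22.8% of all genes tested. It was highest in 3 of 4 other EGR and NR4A genes, 11 of 22 rapid and 8 of 15 feedback genes. The same held for 12 of 33 upstream genes and 0 of 6 other AP-1 subunits. Bdnf, the neurotrophin gene, named here after its values were seen, was at 1005 normalized counts in olanzapine pool 1 and between 153 and 242 in the others. The log2 fold change of Bdnf was 1.03 (SE 0.68, edgeR adjusted p = 0.478) with all pools and turned to -0.44 (SE 0.22, edgeR adjusted p = 0.317) without olanzapine pool 1.

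**Figure D4:**
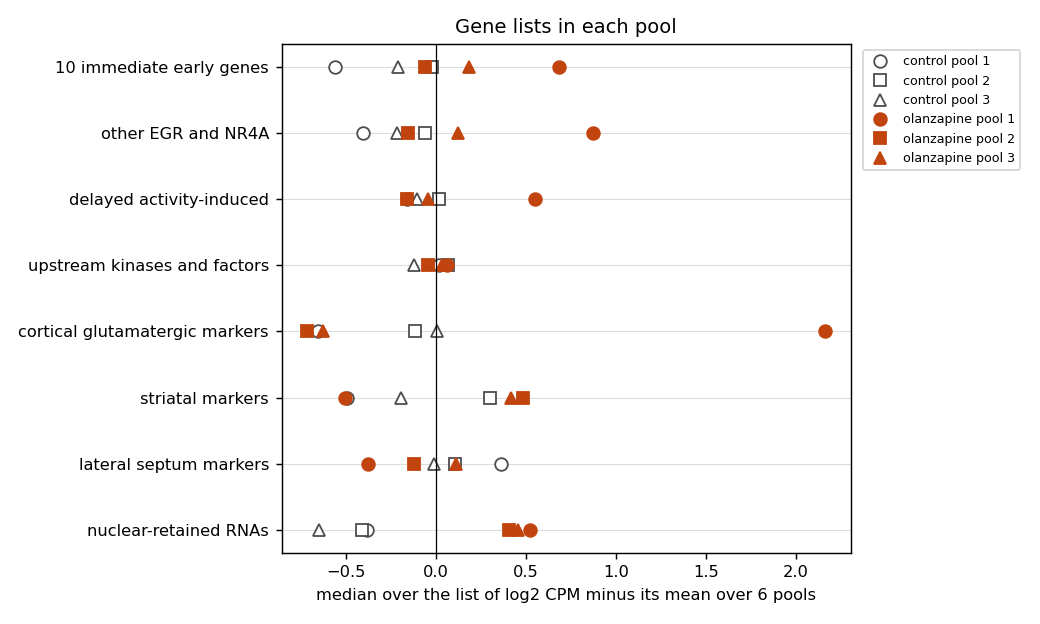
For 8 gene lists, the median over the list of each gene's log2 CPM minus its mean over the 6 pools (horizontal axis), with 1 symbol per pool (open, control; filled, olanzapine). Olanzapine pool 1 is rightmost for the immediate early genes at 0.68, for the other EGR and NR4A genes at 0.87, for the delayed genes at 0.55 and for the cortical markers at 2.16, while the nuclear-retained RNAs part all olanzapine from all control pools.

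Levels were compared between genes per kilobase, as FPKM over the 6 pools. Egr1 was the most abundant at 71.8 FPKM (range 42.8 to 118), in the 95.4th percentile of the genes tested, followed by Arc at 48.0 (33.7 to 99.1), Junb at 28.7 (21.1 to 35.6), Nr4a1 at 14.7 (7.63 to 21.8) and Fos at 9.22 (7.79 to 13.1). Fosl2 at 4.72 FPKM, Fosb at 4.45, Ier2 at 3.07, Npas4 at 1.36 and Egr2 at 0.960 followed. The pool ranges of neighbours in this order overlapped, except between Fos and Fosl2. Within single pools, Egr1 exceeded Arc, Arc exceeded Junb, Junb exceeded Nr4a1, Fos exceeded Fosl2 and Ier2 exceeded Npas4 in all 6. The order held in 5 of 6 pools for Nr4a1 over Fos and for Fosb over Ier2. It held in 4 of 6 for Fosl2 over Fosb and for Npas4 over Egr2. With lengths taken from the GENCODE exons, an alternative chosen after seeing the data, Npas4 came to 5.51 CPM per kilobase. That put it at place 6, above Fosl2, and Ier2 at 3.07 came above Fosb at 2.69. The GENCODE length is shorter for Npas4, and longer for Fosl2 and Fosb, than that implied by the deposited counts and FPKM. Reads counted outside the GENCODE exons would raise the Npas4 value, and their share was not tested.

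**Figure D5:**
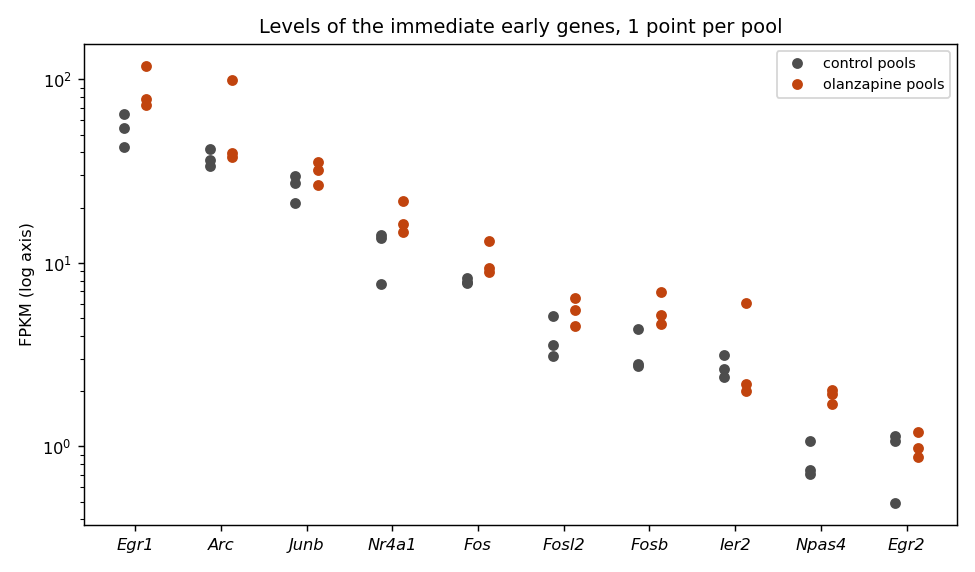
FPKM of the 10 immediate early genes on a log axis, 1 point per pool (grey, control; orange, olanzapine), ordered by the mean over pools. Egr1 is at the top with 42.8 to 118 FPKM and Egr2 at the bottom with a mean of 0.960 FPKM.

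The 10 genes followed each other across pools to different degrees. The mean of their standardized log2 CPM was 1.48, -0.15 and 0.28 in olanzapine pools 1 to 3 against -1.15, -0.01 and -0.44 in control pools 1 to 3. Control pool 1 and olanzapine pool 1 were thus the ends of the range. Pearson's r of each gene with this mean, over 6 pools that include the gene itself and share library and dissection, ran from 0.61 in Ier2 and 0.76 in Egr2 to 0.99 in Egr1. Npas4 was at 0.82.

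Of the 4781 other genes that averaged 50 counts or more and spanned at least 1.5-fold over the pools, the 10 most like this mean were Uxs1, Npy, Gm17202, Gcfc2, Pglyrp1, Dusp14, Gm28175, Dffb, Lamp5 and Zfp90, with r from 0.975 to 0.995 over the 6 pools. Their edgeR adjusted p ran from 0.225 to 0.576 with all pools and from 0.336 to 0.887 without olanzapine pool 1. Npy, the neuropeptide Y gene, had 2177, 1248 and 1292 normalized counts in olanzapine pools 1 to 3 against 823, 1283 and 1033 in control pools 1 to 3. Lamp5, which is also in the list of cortical markers, had 5503 in olanzapine pool 1 and between 1517 and 2547 in the others. Dusp14, a phosphatase that is also in the feedback list, ran from 1094 in control pool 1 to 2419 in olanzapine pool 1.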

How the data were processed

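Libraries made from total RNA of 6 pools (3 mice each) were sequenced as paired-end reads of 150 bp. Whether poly(A) RNA was selected is not stated in the paper. The submitters' processing notes name fastp, HISAT2, HTSeq and the build mm10, and versions, annotation and strand setting are not given in the sources used here. The authors deposited raw counts per gene and FPKM per gene. CPM divided by FPKM gave, for each of the 10 genes examined, the same length in kilobases in every pool. For these genes the 2 tables thus share 1 normalization. All 6 columns were mapped by their sample descriptions, and 0 columns were left unused.

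Counts were fitted in R 4.3.3 with edgeR 4.0.16 (TMM, filterByExpr at a minimum count of 10 and total of 15, quasi-likelihood F test, group as the only term, Benjamini-Hochberg adjustment). The SE is the size of the log2 fold change over the root of F. Calls rest on 4 residual degrees of freedom, or 3 without olanzapine pool 1; exact permutation of the pools could not go below p = 0.1, or 0.2. Log2 CPM used a prior count of 2. DESeq2 1.42.0, limma 3.58.1 (log2 FPKM with a pseudocount of 1 or 0.1, mean FPKM at or above 0.1, or unfiltered), other size factors, other filters and left-out pools were alternatives.

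The members, the gene lists and the alternatives were chosen with earlier results of these data known. The rule for named genes took the members, those of each list called in either fit or otherwise its 3 most abundant, and the 10 most like the members. Cell type lists with no call are given by counts and sums, apart from Slc17a7, the most abundant cortical marker. Genes named outside the rule (Bdnf, Hspa8, Hspa1a, Hspa1b and those named for a DESeq2 call) were chosen after their values were seen. Promoters came from RefSeq GRCm38.p6 and exons from GENCODE M21.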

Additional observations from a re-analysis of the deposited data

How the results depend on the processing

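Npas4 kept its direction in every fit, with a log2 fold change from 1.04 to 1.35 when 1 of the 6 pools was left out. The number of called immediate early genes, 1 with all pools, was 3 with DESeq2 (Npas4, Egr1 and Fosb), 5 at an unadjusted p under 0.05, 0 with limma on log2(FPKM + 1) without a filter and 0 to 1 when each pool was left out. Without olanzapine pool 1 the number, again 1, was 2 with DESeq2 (Npas4 and Egr1), 3 at an unadjusted p and 0 in all 3 limma fits. It stayed at 1 with any 1 control pool also left out. Leaving out a further olanzapine pool leaves 1 pool in that group, so no count is given for it. RLE factors, total counts, either count filter and the fold limit of 2 left the number of called genes at 1 in both fits. The median over the 10 immediate early genes, 0.51 on the log2 scale with all pools, ran from 0.24 (without olanzapine pool 1) to 0.71 (without control pool 2). Without olanzapine pool 1 it was 0.24, and it came to 0.13 without control pool 1, 0.15 without olanzapine pool 3, 0.37 without control pool 2 and 0.13 with the replicate block. In limma on log2(FPKM + 1), Npas4 was at 0.65 with all pools and 0.62 without that pool. With 1 pool left out, Egr2 ran from -0.13 (without control pool 1) to 0.38 and Ier2 from -0.42 (without olanzapine pool 1) to 0.57. Once olanzapine pool 1 was out, leaving out a further pool gave -0.28 to 0.23 for Egr2, -0.043 to 0.11 for Arc and -0.010 to 0.28 for Junb. Npas4 moved from 1.36 FPKM to 5.51 CPM per kilobase of GENCODE exons. The cause of these shifts was not tested, and the fits with pools left out also hold fewer samples.

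Same-numbered pools did not deviate together (r = 0.0148, 0.108 and -0.404), so the numbers were not taken as pairs. With the replicate number as a block, 140 genes were called in place of 401, and 0 of the 10 (Npas4 edgeR adjusted p = 0.0679). Without olanzapine pool 1 the replicate block gave 169 genes in place of 508 and again 0 of the 10 (Npas4 edgeR adjusted p = 0.0604), and turned Egr2 to -0.28 and Arc to -0.040. DESeq2 called 1154 and 1341 genes.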

Other observations

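Lists whose calls the text above does not give were counted in the same fits. Of 9 heat shock and handling stress genes, 1 rose by edgeR's quasi-likelihood test (1.83% of all genes tested were called higher with all pools and 1.76% without olanzapine pool 1), 3 had an unadjusted p under 0.05 in each fit, and DESeq2 called 3 with all pools (Dnajb1, Hspa1a and Hspa1b) and 2 without olanzapine pool 1 (Dnajb1 and Hspa1a). Dnajb1, a cochaperone, had a log2 fold change of 0.37 (SE 0.07, edgeR adjusted p = 0.0389) and the same size without olanzapine pool 1 (edgeR adjusted p = 0.0418), while the most abundant of the list, the chaperone gene Hspa8, had 0.08. The inducible HSP70 genes Hspa1a and Hspa1b had log2 fold changes of 0.59 (SE 0.15, edgeR adjusted p = 0.0929) and 0.53 (SE 0.15, edgeR adjusted p = 0.125), and of 0.65 and 0.45 without olanzapine pool 1. They are near-identical copies, so the split of reads between them is uncertain. Of 7 markers of brain endothelium, 0 were called with all pools by edgeR's quasi-likelihood test (1 at an unadjusted p under 0.05, 0 by DESeq2) and 4 fell without olanzapine pool 1 (1.11% of all genes were called lower), where DESeq2 called 7. Flt1, the VEGF receptor 1 gene, had 2005, 1116 and 1013 normalized counts in olanzapine pools 1 to 3 against 2289, 2175 and 1816 in control pools 1 to 3, and fell by 0.98 on the log2 scale without olanzapine pool 1 (SE 0.11, edgeR adjusted p = 0.00426). Pecam1 fell by 0.81 and Tek by 1.07, with Cdh5 between them. In that fit 1 of 7 microglial markers (C1qa, 0.34) and 1 of 12 striatal markers (Rgs9, 1.00) rose, against 1.76% of all genes called higher. At an unadjusted p under 0.05 there were 3 microglial markers in each fit, and DESeq2 called 0 with all pools and 2 (C1qa and C1qb) without olanzapine pool 1. The 12 striatal markers all had positive log2 fold changes, with a median of 0.29 and 1 at an unadjusted p under 0.05 with all pools, and of 0.53 and 10 without olanzapine pool 1, and DESeq2 called 1 in each fit. The backgrounds were 17.6% and 18.8% of all genes tested at an unadjusted p, and 6.69% and 7.58% with DESeq2.

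Of 15 lateral septum, 8 hippocampal, 7 astrocyte, 7 oligodendrocyte and 5 blood markers tested, 0 were called in either fit by edgeR's quasi-likelihood test. With all pools, an unadjusted p under 0.05 was reached by 5 septal, 3 hippocampal and 2 astrocyte markers, and DESeq2 called 2 septal (Prdm16 and Glp1r) and 2 hippocampal ones (Prox1 and Zbtb20). Without olanzapine pool 1 the unadjusted p was under 0.05 in 4 septal, 3 hippocampal and 1 astrocyte marker, and DESeq2 called 1 septal (Prdm16) and 2 hippocampal ones (Ccn3 and Zbtb20). Over all genes tested the shares were 17.6% and 18.8% at an unadjusted p, and 6.69% and 7.58% with DESeq2. Of the 12 cortical markers, 0 were called by edgeR in either fit, 2 and 5 had an unadjusted p under 0.05, and DESeq2 called 0 and 2. Of the 9 choroid plexus markers, 0 were called by edgeR or DESeq2 and 0 had an unadjusted p under 0.05, and their sum ran from 88.6 CPM in olanzapine pool 3 to 7605 CPM in control pool 3.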
